A study of Homo sapiens with 16 samples.

Results

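The genes described here are 34 zinc finger genes of the cluster at chromosome band 19p12, out of 28278 gene symbols counted in the series. They were listed by symbol, and a member is called on in a group where its mean level is at least 1 CPM (the gene's reads scaled by library size, the unit abbreviated CPM) and off below that. The members were chosen by symbol with their group mean levels, and so these states, already known, so the members' levels and differences are given as a description and carry no test. The RefSeq gene table places all 34 on chromosome 19; the band itself was not checked. CPM is not corrected for gene length, so a state compares 1 gene across groups, not genes with each other.

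RNA was sequenced from SKMEL28 and A375, established human melanoma lines that both carry an activating BRAF mutation, to ask what the transcription factors MITF and TFE3 contribute in melanoma cells. The SKMEL28 groups were wild type, with 1 library that its label numbers as replicate 4; MITFKO, with 3; and clone 3 and clone 13, labelled MITFKO, TFE3KO, with 3 each. A375 gave 3 wild-type and 3 TFE3KO libraries, with no MITF editing in the labels. The clones were made by editing TFE3 with CRISPR-Cas9 in the D2-MITFKO SKMEL28 line, so both carry whatever distinguishes that line from its wild-type parent. The replicates were separate flasks of the same line or clone, and each edited SKMEL28 group is therefore 1 line or clone. Clone 3 and clone 13 share the genotype MITFKO, TFE3KO. For the A375 TFE3KO cells the labels name no clone. The media differed, RPMI for SKMEL28 and DMEM for A375.

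Total counts ran from 17320855 to 31269126 a library, and 27 to 33 of the 34 members had a read. The file header of the SKMEL28 wild-type library names another alignment input than the one shared by 14 libraries, the header of A375 wild-type replicate 2 names none, and the SKMEL28 wild-type level rests on that lone library; what this does to a comparison with it was not tested. TFE3 mRNA was 120 CPM in A375 wild type and 11.6 in A375 TFE3KO. In SKMEL28 it was 46.2 CPM in wild type, 75.1 in the libraries labelled MITFKO, 9.62 for clone 3 and 46.8 for clone 13. MITF mRNA was 554 CPM in SKMEL28 wild type and 478 to 538 in the libraries labelled MITFKO. The mRNA levels of MITF and TFE3 themselves therefore do not check the MITFKO label or that of clone 13. Of 11 melanocyte markers, 10 reached 1 CPM in SKMEL28 wild type and 4 in A375, where the pigment enzyme TYR was at 0. Leukocyte markers summed to at most 0.612 CPM in any library, germ or pluripotent cell markers to at most 0.245 and endothelial markers to at most 3.78. Keratinocyte markers, nearly all from KRT10 and KRT14, summed to 20.8 to 36.8 CPM in SKMEL28 libraries and 64.6 to 79.9 in A375. Fibroblast markers, mostly the proteoglycan LUM, summed to 46.9 to 110 CPM in SKMEL28 and at most 7.14 in A375, and their values by group stand beside the clones below.

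Most genes of this cluster encode proteins with an amino-terminal KRAB domain followed by an array of C2H2 zinc fingers. The fingers bind DNA, often inside transposable elements, and the KRAB domain binds TRIM28, which brings in the histone H3K9 methyltransferase SETDB1, HP1 proteins and DNA methylation, so that the bound site is packed into silent chromatin. The cluster grew by tandem duplication in primates. Its genes resemble each other closely and are themselves packed in long H3K9-methylated domains in many cell types. ZNF91 and ZNF93 are the members best known for their targets, SVA and LINE-1 elements.

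The promoters show how alike the members are. The 250 bases before the start of 5 members are printed below from RefSeq (GRCh38.p14), chosen to hold members whose levels differed most between groups, with a neighbour that stayed on (ZNF43) and one that was off in every group (ZNF100). They are written 5' to 3' on the gene's strand, with each copy of CCAATCAG in capitals, a sequence that holds the CCAAT box bound by NF-Y. ZNF208 is at chr19:22010944-22011193 on the minus strand, ZNF257 at chr19:22052234-22052483 on the plus strand, ZNF492 at chr19:22634074-22634323 on the plus strand, ZNF43 at chr19:21836183-21836432 on the minus strand and ZNF100 at chr19:21767580-21767829 on the minus strand.
ZNF208: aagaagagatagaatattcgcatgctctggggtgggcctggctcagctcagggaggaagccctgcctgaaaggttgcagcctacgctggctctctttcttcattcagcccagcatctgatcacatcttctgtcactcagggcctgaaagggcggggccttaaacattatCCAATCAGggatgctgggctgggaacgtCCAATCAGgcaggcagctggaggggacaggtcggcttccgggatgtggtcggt
ZNF257: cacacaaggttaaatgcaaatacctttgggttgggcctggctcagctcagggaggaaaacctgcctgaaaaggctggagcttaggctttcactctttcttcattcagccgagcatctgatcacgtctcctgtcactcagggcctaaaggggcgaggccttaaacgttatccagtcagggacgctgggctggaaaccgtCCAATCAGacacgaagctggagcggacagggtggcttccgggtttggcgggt
ZNF492: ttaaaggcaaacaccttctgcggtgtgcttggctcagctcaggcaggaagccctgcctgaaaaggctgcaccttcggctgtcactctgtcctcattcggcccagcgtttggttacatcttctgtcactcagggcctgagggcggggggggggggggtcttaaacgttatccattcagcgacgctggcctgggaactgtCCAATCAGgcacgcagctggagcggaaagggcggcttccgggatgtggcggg
ZNF43: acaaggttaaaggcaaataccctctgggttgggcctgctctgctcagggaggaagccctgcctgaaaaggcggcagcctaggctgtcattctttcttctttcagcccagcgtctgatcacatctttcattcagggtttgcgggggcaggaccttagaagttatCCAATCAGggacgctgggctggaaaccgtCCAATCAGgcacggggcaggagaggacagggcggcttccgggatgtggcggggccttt
ZNF100: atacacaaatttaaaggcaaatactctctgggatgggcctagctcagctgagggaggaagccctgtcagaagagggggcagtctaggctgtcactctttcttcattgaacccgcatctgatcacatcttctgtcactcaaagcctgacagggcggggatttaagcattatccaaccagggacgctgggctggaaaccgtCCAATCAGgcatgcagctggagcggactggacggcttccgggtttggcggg

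RefSeq promoters were matched for 27 of the 34 members, and CCAATCAG was found on either strand within the 300 bases around the start in 27 of 27, against 4.75% of 27305 genes with a promoter of that length and 15.6% of 378 other ZNF genes. On the gene's strand its first base lay at positions -87 to -29 from the start (median -81). CTGTCACT, which overlapped it in 0 of 28 member promoters (ZNF682 has a second one, without the first motif), was found on either strand in 24 of 27 members, 2.35% of all genes and 8.73% of other ZNF genes. These letters were chosen after the sequences had been seen, and a match describes the sequence only. The observed over expected CpG ratio had a median of 0.448 in 19 members on in all groups, 0.443 in 6 on in some and 0.424 in 2 off in all, against 0.58 over all promoters. ZNF208, ZNF492 and ZNF43 all carry the element, and their levels across the groups, given below, were unlike each other.

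Across the 6 groups, 22 members were on in every group, 4 were off in every group and 8 were on in some. The number on was 30 of 34 in SKMEL28 wild type, 25 in MITFKO, 25 in clone 3, 23 in clone 13, 27 in A375 wild type and 29 in A375 TFE3KO. The members' summed level was 336 CPM in the SKMEL28 wild-type library, 196 to 227 in MITFKO, 167 to 179 in clone 3, 172 to 192 in clone 13, 240 to 248 in A375 wild type and 275 to 295 in A375 TFE3KO. In bulk RNA, fewer cells that express a gene and less RNA per cell cannot be told apart.

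**Figure D1:**
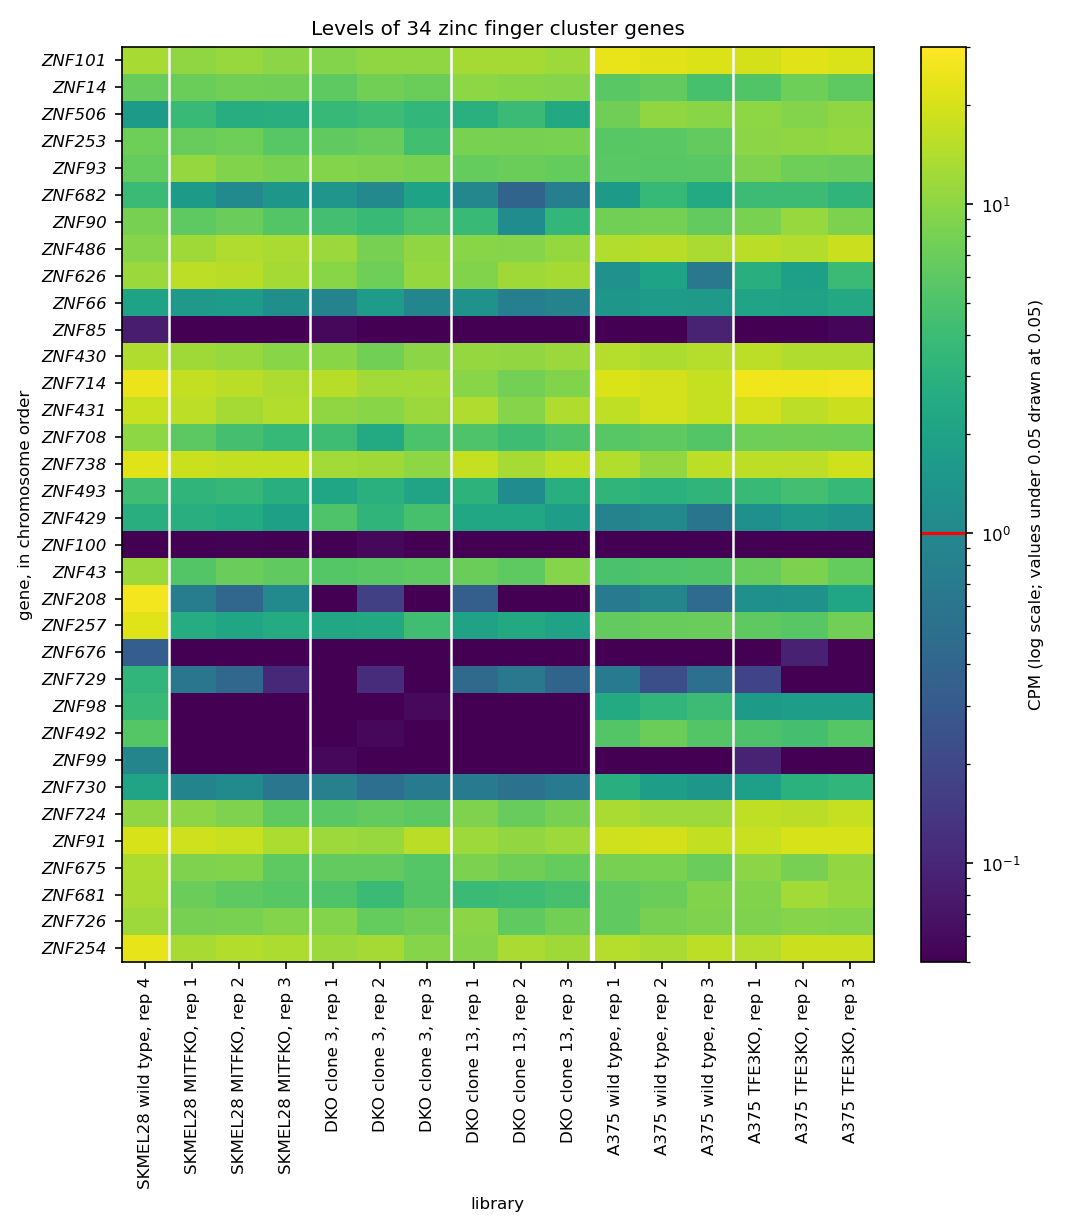
Level of each of the 34 members (rows, in chromosome order) in each of the 16 libraries (columns), as CPM on a logarithmic colour scale on which values under 0.05 are drawn at 0.05 and the red line marks 1 CPM. ZNF85 and ZNF100 are dark in all 16 columns, and the dark stretch from ZNF676 to ZNF99 in the MITFKO and clone columns is broken in A375 by ZNF98 and ZNF492.

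The members off in every group were ZNF85, ZNF100, ZNF676 and ZNF99. ZNF85 had at most 2 reads and ZNF100 at most 1 read in any library. ZNF676 had 8 reads in SKMEL28 wild type (0.337 CPM) and otherwise only 2 reads in 1 A375 TFE3KO library. ZNF99 was at 0.927 CPM in SKMEL28 wild type, just outside the threshold on 22 reads, and had at most 3 reads in any other library.

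The 22 members on in every group had group means from 1.32 CPM (ZNF626 in A375 wild type) to 26.3 CPM (ZNF714 in A375 TFE3KO). The 5 with the most reads were ZNF714, ZNF738, ZNF91, ZNF101 and ZNF431. ZNF714 read 24.7 CPM in SKMEL28 wild type, 16.8, 15.3 and 13.8 in MITFKO, 15, 12.4 and 12.4 in clone 3 and 9.6, 7.87 and 9.04 in clone 13. In A375 it read 20.8, 19.2 and 16.9 in wild type and 26.1, 25.8 and 26.9 in TFE3KO. All clone 13 libraries were thus below all of MITFKO and clone 3, while the A375 TFE3KO libraries were above all of their wild type.

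ZNF91, the repressor of SVA elements, read 20.6 CPM in SKMEL28 wild type, 19, 17.5 and 13.8 in MITFKO, 11.7, 11.2 and 15.3 in clone 3 and 11.8, 10.6 and 11.8 in clone 13. Its A375 levels were 19.1, 19.7 and 16.8 CPM in wild type and 17.6, 20.4 and 20.4 in TFE3KO, which overlap. Clone 13 was below MITFKO in every library, by 1.47-fold, and clone 3 overlapped it. ZNF738 read 22.2 CPM in SKMEL28 wild type, 18, 16.6 and 16.5 in MITFKO, 12.4, 12.2 and 10.1 in clone 3 and 17.1, 13 and 16.4 in clone 13. In A375 it was at 14.3, 10.7 and 16 CPM in wild type and 15.8, 15.9 and 19.1 in TFE3KO. Clone 3 stood below every other SKMEL28 group for this gene.

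ZNF431 read 17.6 CPM in SKMEL28 wild type, 15.8, 12.8 and 14.2 in MITFKO, 10.3, 9.6 and 11.4 in clone 3 and 13.9, 9.5 and 14.1 in clone 13, with 16.3, 19.4 and 17.1 in A375 wild type and 19.3, 15.8 and 18.1 in TFE3KO. ZNF101 read 13.1 CPM in SKMEL28 wild type, 10.5, 11.3 and 9.81 in MITFKO, 9.25, 10.3 and 10.3 in clone 3 and 12.7, 12.8 and 11.9 in clone 13. Its A375 levels, 24.2, 22.4 and 21.4 CPM in wild type and 20, 22.7 and 20.7 in TFE3KO, were above all SKMEL28 libraries. All 5 of these members were on in every group. Close to the threshold among members on everywhere were ZNF626 in A375 wild type and ZNF506 in SKMEL28 wild type, at 1.64 CPM.

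The state of 5 members differed between SKMEL28 wild type and MITFKO, all on in the first and off in the second: ZNF208, ZNF729, ZNF98, ZNF492 and ZNF730. They lie together. In chromosome order ZNF208 is followed by ZNF257, ZNF676, ZNF729, ZNF98, ZNF492, ZNF99 and ZNF730, and in MITFKO, clone 3 and clone 13 the 6 adjacent members from ZNF676 to ZNF730 were all off. ZNF257 is the only member of the stretch with a mean above 1 CPM in those groups.

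ZNF208, whose neighbourhood is known from genetic studies of telomere length, read 26.6 CPM in SKMEL28 wild type, 0.755, 0.414 and 1.07 in MITFKO, 0, 0.17 and 0 in clone 3 and 0.345, 0.0492 and 0 in clone 13. MITFKO was 35.5-fold below wild type (log2 fold change -5.09 ± 0.479 SE); fold differences here are ratios of a group's summed reads over its summed library sizes, so they can differ from the ratio of mean levels. ZNF257, the next gene, read 22 CPM in wild type, 2.64, 2.22 and 2.59 in MITFKO, 2.25, 2.44 and 4.18 in clone 3 and 2.01, 2.46 and 2.01 in clone 13, and MITFKO was 8.81-fold below wild type (-3.09 ± 0.282 SE). The wild-type library was above the other 9 SKMEL28 libraries for both genes, and ZNF257 stayed on while ZNF208 did not.

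ZNF98 and ZNF492, a closely related pair, were at 3.71 and 5.52 CPM in SKMEL28 wild type, on 88 and 131 reads. Neither had a read in the 3 MITFKO or the 3 clone 13 libraries, and each had 1 read in 1 clone 3 library. Against the floor of 3 counts over a group, MITFKO was at least 74.4-fold lower for ZNF98 and at least 111-fold lower for ZNF492. In A375 wild type the same genes were on, at 2.47, 3.38 and 3.97 CPM for ZNF98 and at 5.4, 7.05 and 5.37 CPM for ZNF492. The A375 TFE3KO libraries read 1.65, 1.74 and 1.8 CPM for ZNF98 and 5.01, 4.56 and 5.6 CPM for ZNF492. The pair was therefore on together or off together in each of the 6 groups.

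ZNF729 read 3.33 CPM in SKMEL28 wild type, 0.614, 0.414 and 0.102 in MITFKO, 0, 0.114 and 0 in clone 3 and 0.46, 0.64 and 0.393 in clone 13; MITFKO was 8.72-fold below wild type. In A375 it was off, at 0.686, 0.232 and 0.514 CPM in wild type and 0.183, 0 and 0 in TFE3KO. ZNF99 had no read in MITFKO and was at least 18.6-fold below wild type there. ZNF676, on 8 wild-type reads, was at least 6.77-fold lower. ZNF730, the last gene of the stretch, read 2.11 CPM in SKMEL28 wild type, 0.897, 1.03 and 0.61 in MITFKO, 0.809, 0.511 and 0.707 in clone 3 and 0.69, 0.541 and 0.688 in clone 13. It lay just outside the threshold, 2.49-fold below wild type in MITFKO, and was on in A375 at 2.75, 1.81 and 1.49 CPM in wild type and 1.83, 2.99 and 3.37 in TFE3KO. ZNF98, ZNF492 and ZNF99, in the middle of the stretch, were without reads in MITFKO, and ZNF730 at its end was not.

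The stretch also holds a pair of zinc finger genes outside the member list, ZNF723 and ZNF728, between ZNF99 and ZNF730. ZNF723 read 2.11 CPM in SKMEL28 wild type (50 reads) and had none in MITFKO, where it fell at least 42.3-fold (edgeR, adjusted p = 0.00023). ZNF728 read 5.02 CPM in wild type and 0.0829 ± 0.0281 (SD, n = 3) in MITFKO, and fell 60.4-fold (log2 fold change -5.76 ± 0.921 SE, edgeR adjusted p = 1.77e-05). Both stayed near 0 in the clones, at 0.0193 and 0.0764 CPM in clone 3 and at 0 and 0.0575 CPM in clone 13. In A375 they were at 0.0464 and 0.525 CPM in wild type. Counting them, 10 neighbouring zinc finger genes from ZNF208 to ZNF730 were lower in all 9 MITFKO and clone libraries than in the wild-type library. The same held for 32.2% of all genes tested in SKMEL28 and for 17 of the 24 tested members outside the stretch; the stretch was picked from these values, so nothing is read from its count. Their sum was 71.6 CPM in wild type and 4.19 to 5 in MITFKO, while the 26 members elsewhere in the cluster summed to 272 CPM in wild type and 192 to 222 in MITFKO.

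**Figure D2:**
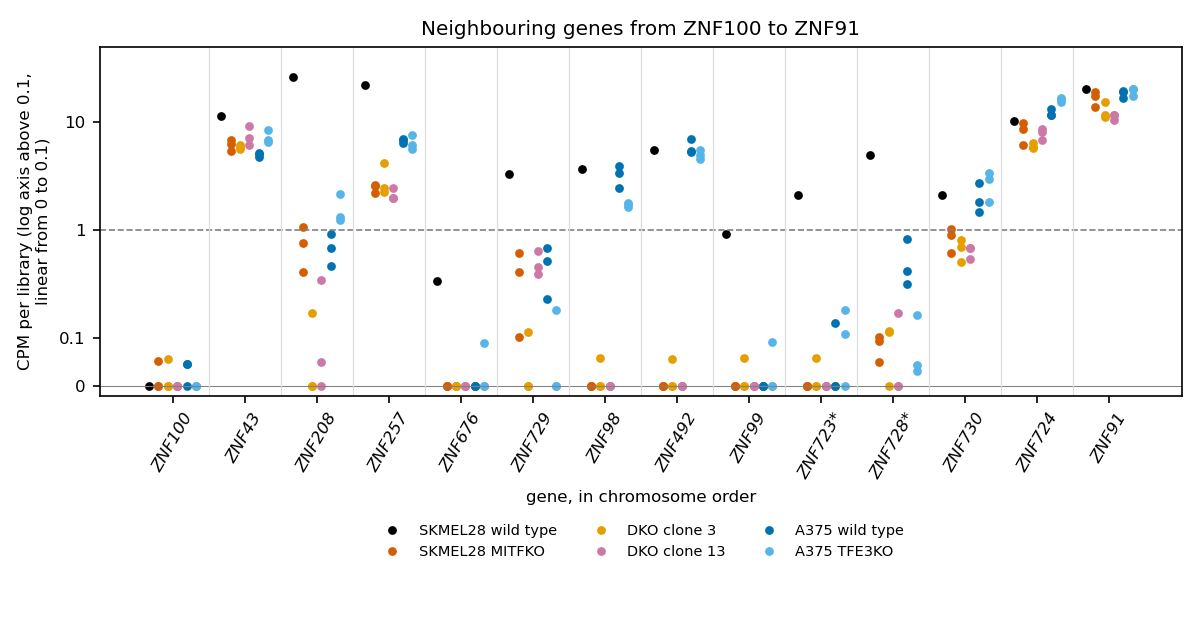
CPM in each library (points, coloured by group, 1 point per library) for the neighbouring zinc finger genes from ZNF100 to ZNF91 in chromosome order; the axis is logarithmic above 0.1 and linear below it, the dashed line marks 1 CPM, and an asterisk marks the genes outside the member list. From ZNF208 to ZNF730 the black wild-type point is above all points of MITFKO and both clones, and at ZNF98 and ZNF492 the A375 points are above 1 CPM while those of MITFKO and the clones are at or near 0.

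The nearest members on both sides of the stretch differed less from wild type than any member within it. ZNF43, on the near side of ZNF208, read 11.4 CPM in SKMEL28 wild type and 5.38, 6.93 and 6.3 in MITFKO, a 1.84-fold difference, and was on in all 6 groups. ZNF724, beyond ZNF730, read 10.4 CPM in wild type and 9.91, 8.63 and 6.2 in MITFKO, 1.25-fold lower. Among the 24 members outside the stretch that were tested, the log2 fold change of MITFKO against wild type ran from -1.46 (ZNF682) to 0.97 (ZNF506), with a median of -0.33 and 19 below 0; ZNF682 was 2.84-fold lower, more than the 2.49-fold of ZNF730 within the stretch. The 10 nearest tested genes by start position were taken, 5 on each side of the cluster and at any distance. They need not adjoin the cluster or lie in the same band. PBX4 (log2 fold change 0.61), LINC00662 (-0.12), VSTM2B (0.17) and PLEKHF1 (0.07) were not called in MITFKO against wild type. Nothing is read from the calls of the rest, as the share called over all genes, given below, was large. Against MITFKO these genes ran from -1.82 (PBX4) to 0.5 (YJEFN3) in clone 3. In clone 13 they ran from -2.08 (VSTM2B) to 0.57 (YJEFN3). On the side of ZNF101, 3 rose: the P-type ATPase ATP13A1 (0.84 ± 0.087 SE, edgeR adjusted p = 4.02e-08), GMIP (0.91, edgeR adjusted p = 3.08e-05) and the lysophosphatidic acid receptor LPAR2 (1.54, edgeR adjusted p = 0.000144). YJEFN3, on the same side, fell (-1.9, edgeR adjusted p = 0.0232). On the side of ZNF254 the respiratory chain subunit UQCRFS1 (-0.99 ± 0.0974 SE, edgeR adjusted p = 1.97e-08) and POP4 (-0.71, edgeR adjusted p = 0.000117) fell.

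How much of each member's transcript is shared with another gene was counted in GENCODE transcripts, since a read that fits several genes may be lost or given to either. Of all windows of 100 bases, 34.7% of ZNF98 and 18.4% of ZNF492 were found exactly in another gene, mostly in each other (33.1% and 17.8%). ZNF724 shared 52.1%, with the transcript of AC092329.3. Of the other members none was above 5%, and 18 of the 34 shared no window. With windows of 50 bases the median share was 5.62% and 19 members were above 5%. The counts of ZNF98, ZNF492 and ZNF724 are therefore uncertain, and how such reads were handled is not given in the sources used here. ZNF208, ZNF257 and ZNF730 shared at most 0.128% of their windows of 100 bases. Of windows of 50 bases, ZNF208 shared 15.1%, ZNF257 2.88% and ZNF730 3.18%. Short reads of ZNF208 may therefore also be lost or given to another gene. The unlisted genes were not searched.

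**Figure D3:**
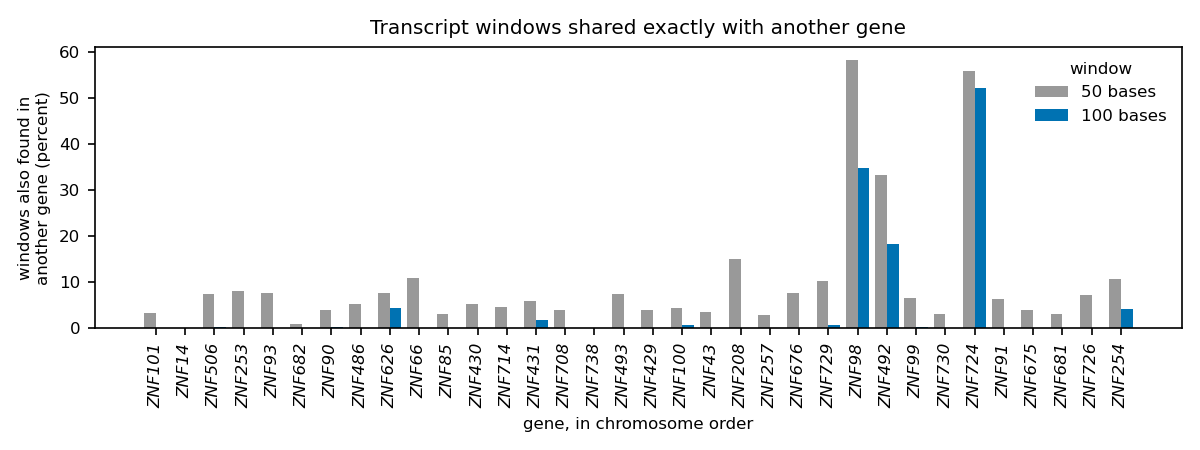
Percent of all windows of 50 bases (grey bars) and 100 bases (blue bars) in each member's longest transcript that are found exactly in a transcript of another gene, with members in chromosome order. ZNF98, ZNF492 and ZNF724 stand out, at 34.7%, 18.4% and 52.1% of windows of 100 bases.

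Over the whole list, 31 of 34 members had enough reads to be tested in SKMEL28; ZNF85, ZNF100 and ZNF676 did not. Between MITFKO and wild type, 1 member was called higher and 13 lower at an adjusted p under 0.05 (edgeR), where 48.6% of all genes were called, 25.2% higher and 23.4% lower. Since the list was drawn up from these levels, nothing is read from that count. The member called higher was ZNF486, at 9.36 CPM in wild type and 12, 14.1 and 13.3 in MITFKO; the count was 0 without MITFKO replicate 2. The lone wild-type library was above all MITFKO libraries for 25 members and below them for 5, against 44.8% and 40.2% of all genes. The members' median log2 fold change was -0.37, also with the members at 0 put at their bound, against 0.01 over all genes. ZNF682 read 3.96 CPM in wild type and 1.65, 1.03 and 1.47 in MITFKO, and was the lowest outside the stretch.

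Melanocyte markers moved with this difference: their sum was 15300 CPM in the wild-type library and 5770 to 5980 in MITFKO, with 10 of 11 at 1 CPM or more in both groups. Most of the sum was PMEL, at 10700 CPM in wild type and 3350 in MITFKO. MLANA was at 759 and 3.2 CPM and TYR at 263 and 217, and SOX10 alone of the 11 was higher, at 710 and 839. Fibroblast markers summed to 46.9 CPM in wild type and 51.9 to 61.5 in MITFKO, and keratinocyte markers to 35.4 and 20.8 to 25.5. Their part in the members' levels was not tested.

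**Figure D4:**
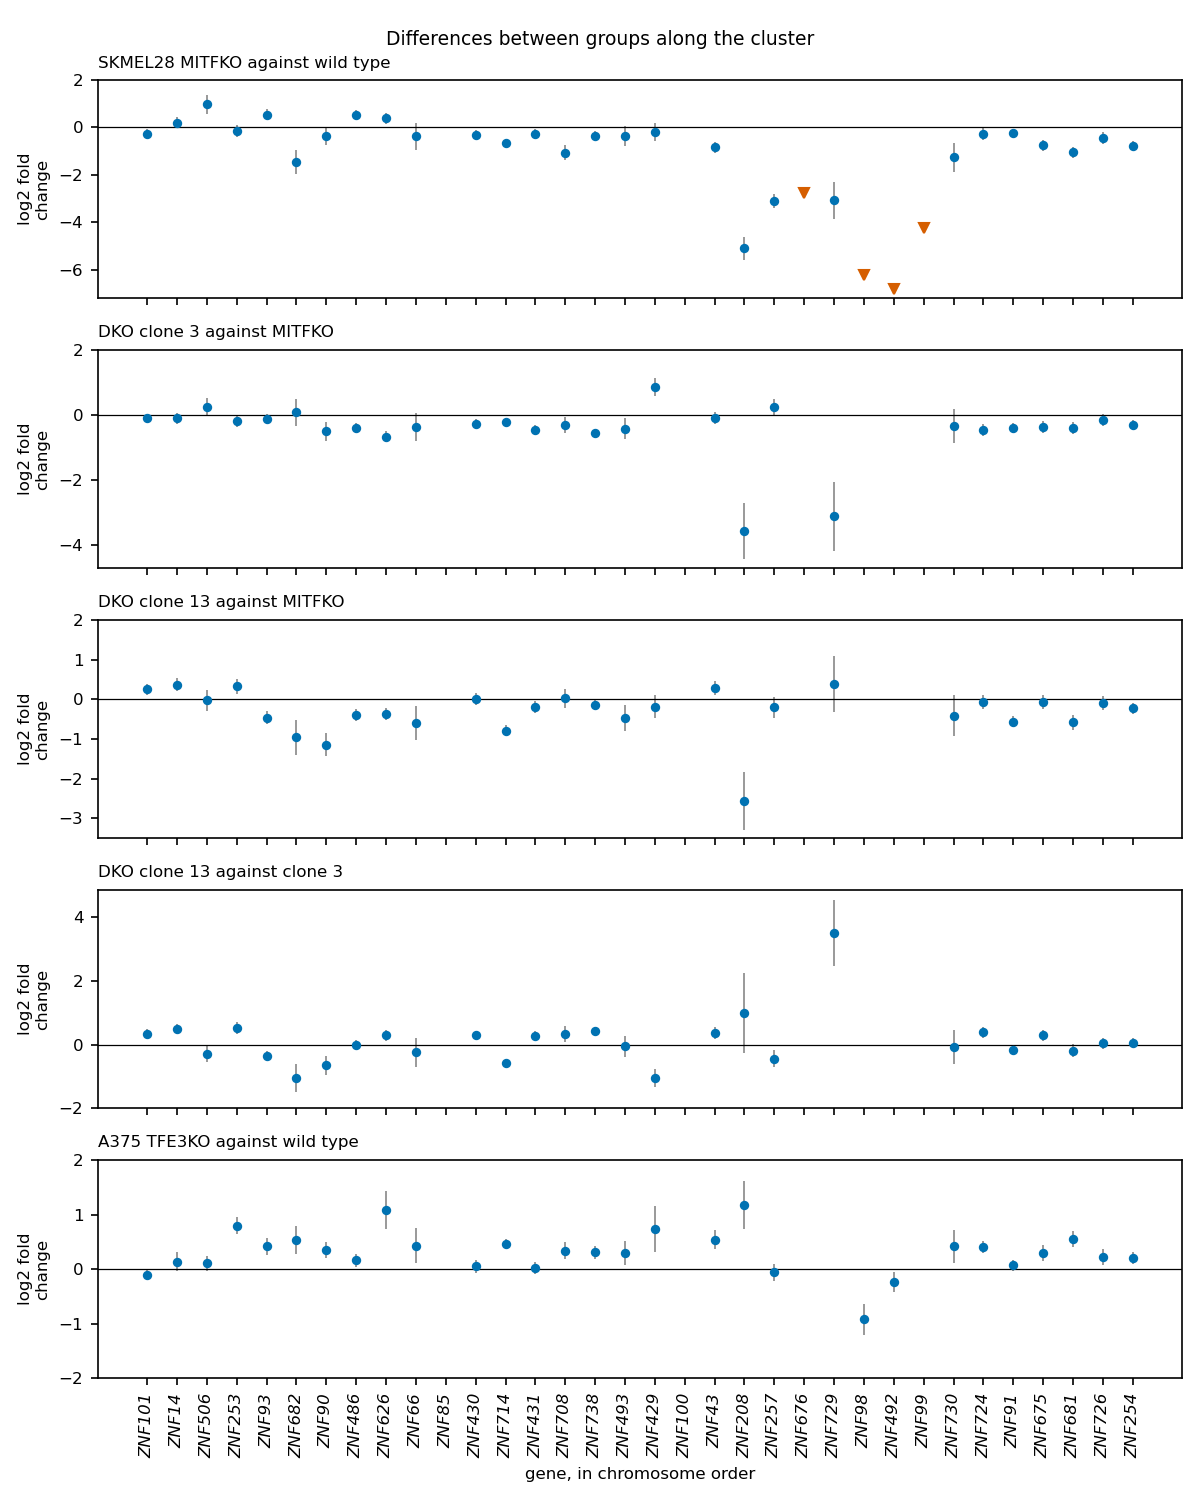
Log2 fold change of each tested member (circles, in chromosome order; bars are ±1 SE of the edgeR fit) in the 5 comparisons, with orange triangles for members at 0 in the MITFKO libraries, drawn at the smallest drop that the floor of 3 counts allows. The lowest values of the first panel lie from ZNF208 to ZNF99, and in the last panel 25 of 29 members are above 0.

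No member changed state between MITFKO and clone 3, in which TFE3 had been edited as well. Of 31 members tested, 1 was called higher and 7 lower, where 35.9% of all genes were called, 18.2% higher and 17.6% lower. All 3 clone 3 libraries were below all 3 of MITFKO for 8 members and above for 1, against 25% and 25.8% of all genes. The median log2 fold change was -0.29, or -0.32 over the 28 members with more than 3 reads in either group, against -0.01 over all genes. The count of members called lower was 3 without MITFKO replicate 1, and 4 without MITFKO replicate 2 or without clone 3 replicate 1 or 2.

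ZNF208, already off, was lower still in clone 3, with 3 reads against 45 in MITFKO, a 12.9-fold ratio (95% counting interval 4.15 to 65). All 3 reads were in clone 3 replicate 2, and without it the ratio was at least 8.54-fold; without replicate 1 it was 8.62 (interval 2.77 to 43.3). ZNF729 had 2 reads against 23, a 9.91-fold ratio (interval 2.45 to 86.7), and its libraries overlapped; both reads were in clone 3 replicate 2, and without it the ratio was at least 4.36-fold. ZNF429 went the other way, at 2.83, 2.53 and 1.88 CPM in MITFKO and 5.2, 3.29 and 4.71 in clone 3, 1.81-fold higher. It was the single member called higher, and that count was 0 without MITFKO replicate 3 or without clone 3 replicate 1 or 3. ZNF626 read 15.8, 15.1 and 12.7 CPM in MITFKO and 9.54, 7.38 and 10.9 in clone 3, 1.58-fold lower with no overlap. ZNF257 was at 2.96 CPM in clone 3, and ZNF98 and ZNF492 had 1 read each, under the floor in both groups.

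Markers of other cell types moved with the clones. Fibroblast markers summed to 51.9 to 61.5 CPM in MITFKO, 103 to 110 in clone 3 and 76.8 to 88.3 in clone 13, with 3 of 5 at 1 CPM or more in each; LUM was at 49.4, 95.1 and 73.8 CPM in these groups and COL1A1 at 0.24, 0.823 and 0.509. Melanocyte markers summed to 5770 to 5980 CPM in MITFKO, 6450 to 7190 in clone 3 and 7070 to 8710 in clone 13. Single markers went both ways: MITF was at 510, 801 and 891 CPM in these groups and GPR143 at 44.3, 6.68 and 19.2. Keratinocyte markers summed to 20.8 to 25.5 CPM in MITFKO, 32 to 32.8 in clone 3 and 31 to 36.8 in clone 13. Their part in the members' levels in either clone was not tested.

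Between MITFKO and clone 13, ZNF682 and ZNF66 changed state, both from just inside the threshold to just outside it. ZNF682 read 1.65, 1.03 and 1.47 CPM in MITFKO and 0.977, 0.394 and 0.786 in clone 13, 1.98-fold lower with no overlap. ZNF66 read 2.02 CPM in SKMEL28 wild type, 1.6, 1.71 and 1.22 in MITFKO, 0.867, 1.7 and 0.943 in clone 3 and 1.32, 0.787 and 0.884 in clone 13. Its mean in clone 13 was 0.998 CPM and its libraries overlapped those of MITFKO, so this change of state is within the spread between libraries.

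Of 31 members, none was called higher and 7 lower in clone 13 against MITFKO, where 40.7% of all genes were called, 20.5% higher and 20.2% lower; 4 were called lower without clone 13 replicate 1. At an unadjusted p under 0.05 edgeR had 1 member higher, and DESeq2 called 0 higher. All 3 clone 13 libraries were below all of MITFKO for 8 members and above for 3, against 25.7% and 24.3% of all genes. The median log2 fold change was -0.19, or -0.2 over the 28 members with more than 3 reads in either group, against -0.02 over all genes. ZNF90 read 8.13 CPM in SKMEL28 wild type, 6.14, 6.98 and 5.44 in MITFKO, 4.39, 3.86 and 4.95 in clone 3 and 3.85, 1.13 and 3.49 in clone 13. It was 2.23-fold lower in clone 13 than in MITFKO with no overlap, and clone 13 replicate 2 was the lowest. ZNF208 had 7 reads in clone 13, 6.2-fold below MITFKO (95% counting interval 2.78 to 16.3). Of these, 6 were in clone 13 replicate 1, and without it the ratio was 30.4 on 1 read (interval 5.19 to 1230); without replicate 3 it was 4.03. ZNF714 was 1.74-fold lower. The comparisons of clone 3 and of clone 13 share the MITFKO libraries, so their values are not independent.

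The clones could be set against each other directly, as separate clones with the same labels. Of 31 members, 4 were called higher and 2 lower in clone 13 than in clone 3, where 27.6% of all genes were called, 14.3% higher and 13.4% lower. Clone 13 was above clone 3 in every library for 9 members and below for 5, against 18.9% and 19.9% of all genes. The median log2 fold change was 0, or 0.05 over 28 members. The 4 called higher became 1 without clone 3 replicate 1 or without clone 13 replicate 1, 2 without clone 13 replicate 3, and 0 without clone 3 replicate 3. The 2 called lower became 1 without clone 3 replicate 1.

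ZNF729 had 29 reads in clone 13 and 2 in clone 3, a 13-fold ratio (interval 3.28 to 112), or at least 5.71-fold without clone 3 replicate 2, which held both of its reads there. ZNF429 read 2.24, 2.31 and 1.82 CPM in clone 13, 2.07-fold below clone 3, and ZNF682 was 2.1-fold lower. ZNF682 in clone 3 read 1.39, 1.02 and 2.06 CPM, above all clone 13 libraries. The clones thus stood apart at ZNF729, ZNF429 and ZNF682, while ZNF98, ZNF492 and ZNF99 had no read in clone 13 and 1 read each in clone 3.

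In A375, TFE3KO cells had ZNF208 and ZNF429 on where wild type had them off, and no member went off. ZNF208 read 0.686, 0.927 and 0.467 CPM in wild type and 1.25, 1.34 and 2.18 in TFE3KO, 2.18-fold higher with no overlap. ZNF429 read 0.869, 1.02 and 0.607 CPM in wild type and 1.25, 1.56 and 1.36 in TFE3KO, 1.65-fold higher. Both cross the threshold from within a factor of 2 of it, and the TFE3KO levels of ZNF208 were far below the 26.6 CPM of SKMEL28 wild type.

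Of 29 members tested in A375, 9 were called higher and 1 lower, where 43.3% of all genes were called, 21.3% higher and 22% lower. All TFE3KO libraries were above all wild-type libraries for 12 members and below for 1, against 25.2% and 25.7% of all genes. The median log2 fold change was 0.31, with 4 of 29 below 0, against 0 over all genes. ZNF626 read 1.28, 2.04 and 0.654 CPM in wild type and 2.75, 1.83 and 3.92 in TFE3KO, 2.08-fold higher with overlap. The SKMEL28 wild-type library had it at 11.5 CPM, and clone 13 at 8.91, 12.1 and 12.8 CPM. ZNF98 was the member called lower, 1.91-fold. ZNF729, with too few reads to be tested, had 6 reads in TFE3KO and 31 in wild type, a ratio of 5.85 (95% counting interval 2.41 to 17.2). All 6 were in TFE3KO replicate 1, and without it TFE3KO was at least 6.5-fold lower. The count of members called lower was 0 without wild-type replicate 3 and 2 without wild-type replicate 2 or TFE3KO replicate 1.

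Of the other members whose state changed in SKMEL28, ZNF682, ZNF66, ZNF98, ZNF492 and ZNF730 were on in both A375 groups and ZNF729 was off in both. ZNF682 read 1.65, 3.66 and 2.52 CPM in wild type and 3.97, 4.02 and 3.26 in TFE3KO, and ZNF66 read 1.46, 1.71 and 1.59 CPM in wild type and 2.08, 1.97 and 2.39 in TFE3KO. ZNF90 was at 7.6, 7.97 and 6.44 CPM in wild type and 8.19, 11.3 and 8.54 in TFE3KO. Melanocyte markers also differed between these groups, with a sum of 547 to 569 CPM in wild type and 805 to 877 in TFE3KO. The 4 of 11 at 1 CPM or more in both went different ways. SOX10, most of the sum, rose from 503 to 787 CPM, and S100B rose from 2.84 to 18.8. MITF fell from 34.7 to 18 CPM and MLPH from 18.6 to 9.15. Keratinocyte markers summed to 64.8 to 68.3 and 64.6 to 79.9 CPM and fibroblast markers to 6.07 to 7.14 and 4.46 to 6.84; their part was not tested.

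Unlisted zinc finger genes within the cluster gave further values in A375. ZNF728 and ZNF723 had too few reads to be tested there. ZNF728 was 7.7-fold lower in TFE3KO, at 0.0795 CPM on 5 reads against 0.525 CPM on 34 reads in wild type. ZNF723 had 8 reads in TFE3KO and 3 in wild type. ZNF737, between ZNF486 and ZNF626, rose 2.21-fold in TFE3KO, from 3.21 ± 0.329 to 7.04 ± 1.08 CPM (SD, n = 3 each; edgeR adjusted p = 1.77e-06). The transcribed pseudogene ZNF826P, beside it, rose from 2.87 ± 0.332 to 4.96 ± 0.885 CPM (SD, n = 3 each; edgeR adjusted p = 0.00292) and had no read in any of the 10 SKMEL28 libraries. ZNF737 was at 9.19 CPM in SKMEL28 wild type and 5.98 in MITFKO (edgeR adjusted p = 0.103), and it was called without MITFKO replicate 1 (adjusted p = 0.032) or without replicate 2 of both clones (0.0483). ZNF56P, counted as ZNF56, was at 0.506 CPM in SKMEL28 wild type, 1.02 in MITFKO, 0.443 and 0.44 in clones 3 and 13, 0.727 in A375 wild type and 0.861 in TFE3KO. The non-coding RNA LINC01224, between ZNF91 and ZNF675, was at 11.6 and 9.95 CPM in the A375 groups and at most 0.0421 CPM in SKMEL28 group means.

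Wider lists give the frame for these counts, as descriptions with no set test. Between MITFKO and wild type, 30 of 184 tested ZNF genes elsewhere on chromosome 19 rose and 25 fell, with a median log2 fold change of 0.02. Of 206 ZNF genes on other chromosomes 36 rose and 42 fell (median -0.03), and of 770 other chromosome 19 genes 333 rose and 101 fell (median 0.4). In clone 3 against MITFKO, 5 ZNF genes elsewhere on chromosome 19 rose and 46 fell (median -0.21), and 6 and 48 on other chromosomes (median -0.15). In clone 13 the numbers were 9 and 39 (median -0.18) and 11 and 65 (median -0.2). Of the 770 other chromosome 19 genes, 88 (11.4%) rose and 217 (28.2%) fell in clone 3. In clone 13, 248 (32.2%) rose and 98 (12.7%) fell. Between the clones 310 (40.3%) were higher in clone 13 and 34 (4.42%) lower. Over all genes 18.2% rose and 17.6% fell in clone 3, 20.5% and 20.2% in clone 13, and 14.3% and 13.4% between the clones. The shares for MITFKO against wild type are given above. The members' median was -0.29 in clone 3 and -0.19 in clone 13 against MITFKO. Over the 28 members with more than 3 reads in either group it was -0.32 and -0.2. In A375, 21 of 188 ZNF genes elsewhere on chromosome 19 rose and 19 fell (median 0.06). Of 208 on other chromosomes, 40 rose and 23 fell (median 0.05), beside the members' median of 0.31. Of 766 other chromosome 19 genes, 179 rose and 164 fell (median 0.02), and over all genes 21.3% rose and 22% fell. Whether the members differ from these lists was not tested.

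Corepressor and heterochromatin genes were measured as a list of 34, of which 32 were tested in SKMEL28 and 33 in A375. Beside KRAB cofactors the list holds the enzymes TET1, TET2, TET3, KDM4A and KDM4B, which act against silencing marks, and the KRAB protein ZNF274. Counts over the list therefore mix opposing activities. Between MITFKO and wild type 5 rose and 12 fell, 53.1% of those tested against 48.6% of all genes. The 3 largest changes were TET3, an enzyme that oxidises methylated cytosine, which rose (log2 fold change 1.73 ± 0.123 SE, edgeR adjusted p = 1.03e-10); UHRF1, which guides DNA methylation to replicated DNA, which fell (-1.21 ± 0.269 SE, edgeR adjusted p = 0.00538); and the DNA methyltransferase DNMT3B, which fell (-1.21 ± 0.479 SE, edgeR adjusted p = 0.042). The DNMT3B call was lost with DESeq2 (adjusted p = 0.0738) and without any of MITFKO replicates 1, 2 or 3 (0.115, 0.0795 and 0.0537).

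TRIM28, the partner of the KRAB domain, was singled out after its values had been seen. It was at 687 CPM in SKMEL28 wild type and 442 ± 20.7 (SD, n = 3) in MITFKO, and fell (log2 fold change -0.59 ± 0.0753 SE, edgeR adjusted p = 9.03e-07). It rose from there to 626 ± 11.1 CPM in clone 3 (0.5, edgeR adjusted p = 4.09e-07) and 571 ± 28.9 CPM in clone 13 (0.37, edgeR adjusted p = 1.33e-05; SD, n = 3 each). In A375 it fell from 1410 ± 38.8 to 1310 ± 17.7 CPM (SD, n = 3 each; -0.11, edgeR adjusted p = 0.000844). SETDB1, which acts with it, was at 23.4 CPM in SKMEL28 wild type and 28 in MITFKO (edgeR adjusted p = 0.0677).

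In clone 3, 9 of the 32 tested corepressor and heterochromatin genes rose and 7 fell against MITFKO. That was 50% in all, against 35.9% of all genes. The largest changes were in the histone methyltransferase family member SETDB2 (-0.73), the HP1 protein CBX5 (0.57) and the silencing factor SMCHD1 (-0.56). In clone 13, 5 rose and 8 fell, 40.6% against 40.7% of all genes, led by the H3K9 demethylase KDM4B (0.98), SETDB2 (-0.71) and the demethylase KDM4A (-0.53). Between the clones 2 were higher and 6 lower in clone 13, 25% against 27.6% of all genes, led by KDM4B (0.88), CBX5 (-0.79) and ZNF274 (-0.49), a KRAB protein that binds the 3' ends of zinc finger genes. The ZNF274 call was lost without clone 3 replicate 2 (adjusted p = 0.124) or clone 13 replicate 1 (0.0934). In A375 10 of 33 rose and 3 fell, 39.4% against 43.3% of all genes, led by the cytosine oxidase TET1 (0.62), the methyltransferase DNMT3A (0.46) and KDM4B (0.44); the TET1 call was lost without wild-type replicate 3 (0.108) and the DNMT3A call without TFE3KO replicate 2 (0.111).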

How the data were processed

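Bulk RNA-seq counts of 16 libraries in 6 groups were used. Per the labels, cells were plated in separate flasks as biological replicates, so p-values measure the spread between cultures of a line or clone. The authors deposited raw counts of reads for each gene symbol; the submitters' processing notes name STAR, featureCounts, DESeq2 and the build hg19. None of their versions is given in the sources used here, nor are the annotation, strand use or treatment of reads that match several genes. The RefSeq tables (GRCh38.p14) served for names (26998 of 28278 symbols matched directly), gene order and promoter sequences.

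CPM was computed here with TMM factors over all 16 libraries. Counts were fitted with edgeR 4.0.16 in R 4.3.3 (filterByExpr, TMM, robust quasi-likelihood F-test, Benjamini-Hochberg adjustment over all genes), with 14605 genes in a model of the 10 SKMEL28 libraries and 14012 in a model of the 6 A375 libraries. The spread of the lone SKMEL28 wild-type library was taken from the other groups. For a group without a read the bound was 3 counts in all its libraries together; floors and 95% intervals (exact binomial) cover counting error only. On simulated counts with known changes, the MITFKO against wild-type fit recovered 67% of 2-fold and 98% of 4-fold changes. Only genes above a set mean count were changed, with the same spread for all genes. The rates therefore do not cover members with few reads.

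The members, the lists and the rule for named genes were chosen with earlier results of these data known. For members, the rule gives values in every library where the state differs within a line. It does so too for the 5 with the most reads and the 3 with the largest fold change in each comparison. It also names up to 3 called corepressor and heterochromatin genes per comparison, and unlisted zinc finger genes between members. The genes flanking the cluster, outside this rule, were taken by position. ZNF257, ZNF676, ZNF43, ZNF724, ZNF486, ZNF506, ZNF93, ZNF681, TRIM28, SETDB1 and LINC01224 were named after their values were seen. Alternatives were DESeq2 1.42.0, its size factors, plain totals, no filter, other thresholds, a replicate block, and leaving out libraries.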

Additional observations from a re-analysis of the deposited data

Results flagged for a closer look

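Members were picked out here where every library of a TFE3-edited SKMEL28 clone lay to one side of the MITFKO libraries and every A375 TFE3KO library lay to the other side of its wild type. In each case the clone was lower and A375 TFE3KO higher, and the difference between the lines was not tested. How many of all genes meet this rule was not counted, so nothing is read from the number picked. Over all genes, every library was lower in clone 3 for 25% and in clone 13 for 25.7%. Every A375 TFE3KO library was higher for 25.2%. The log2 fold change in the clone minus that in A375 was, for clone 3, -0.85 for ZNF90 (-0.5 against 0.35), -4.73 for ZNF208 (-3.56 against 1.17) and -0.94 for ZNF681 (-0.39 against 0.55). For clone 13 it was -0.88 for ZNF93 (-0.46 against 0.42), -1.49 for ZNF90 (-1.14 against 0.35), -1.26 for ZNF714 (-0.79 against 0.47), -3.73 for ZNF208 (-2.56 against 1.17) and -1.13 for ZNF681 (-0.58 against 0.55). Both clones are set against the same MITFKO libraries, ZNF208 rests on 3 reads in clone 3 and 7 in clone 13, and the lines were grown in different media.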

How the results depend on the processing

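The number of members on in each group stayed within 1 of its value when any library but the lone wild type was left out, and TMM within a line or plain totals gave the same changes of state. Changes of state depended on the threshold. Between wild type and MITFKO, 0.5 CPM gave 4 members going off and 2 CPM gave 7 with ZNF506 going on; ZNF729, ZNF98 and ZNF492 went off at each. ZNF682 and ZNF66 changed state in clone 13 at neither 0.5 nor 2 CPM, and at 0.5 CPM ZNF208 went off in both clones against MITFKO. In A375, ZNF208 and ZNF429 changed state at neither; at 2 CPM ZNF98 went off and ZNF626 and ZNF66 went on. Members called higher in MITFKO against wild type numbered 0 with no filter on low counts, 0 with DESeq2, 3 without replicate 2 of both clones, and 0 to 1 when 1 library was left out. In this and the following ranges, the 1 library left out was from the groups compared and never the lone wild type. The ranges were 0 to 1 called higher and 3 to 7 lower in clone 3 against MITFKO, and 4 to 7 lower in clone 13 against MITFKO. In clone 13 against clone 3 they were 0 to 5 higher and 1 to 3 lower. For A375 the range was 6 to 10 higher and 0 to 2 lower, against 9 and 1 with all libraries. With no filter 2 were called lower there. Corepressor and heterochromatin genes called in clone 3 against MITFKO numbered 10 to 14, with 10 without MITFKO replicate 2 and 16 with all libraries. ZNF genes elsewhere on chromosome 19 called between the clones numbered 20 to 34, with 20 without clone 3 replicate 3 and 31 with all. The cause was not tested. Over all genes, the share called rose without clone 13 replicate 2, from 48.6% to 54.3% in MITFKO against wild type and from 35.9% to 43% in clone 3 against MITFKO. With plain totals the median over all genes in clone 13 against MITFKO moved to -0.17 and that of the members to -0.3, with 23 below 0. Same-numbered libraries of the clones correlated at 0.0949, 0.23 and 0.0728 in their deviations from the group means, each above the best other number (0.0812, -0.124 and 0.0658), and those of the other comparisons at -0.0552 to 0.0316. Since not every pair of a comparison was above 0.1, the numbers were not taken as pairs; with a replicate block, members called higher and lower numbered 1 and 7 in clone 3 against MITFKO, 0 and 7 in clone 13 against MITFKO, 4 and 2 between the clones and 9 and 1 in A375. MITFKO and wild type share no replicate number, so no block result is given for that comparison. In the SKMEL28 block model the wild-type library, labelled replicate 4, was placed in block 1. No called direction reversed under the alternatives run for the genes named. Depth limits the members under 1 CPM: 3 counts in a library correspond to 0.0917 to 0.177 CPM.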
